A study of Mus musculus with 12 samples.

Results

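The 10 genes described here are known to be switched on in cells when oxygen runs short, and were measured in whole brain hemispheres of mice 24 h after a transient stroke. They are Adm, Vegfa, Angptl4, Slc16a3, Pdk1, Car9, Egln3, Ankrd37, Bnip3 and Ndrg1, chosen by name as known hypoxia-induced genes. All 10 were found among the 20347 gene entries of the count table, 9 under these symbols and Car9 under its synonym Ca9. The mice were male and 12 weeks old, and either lacked the gene Lama4, which encodes a laminin chain of the matrix around brain vessels (Lama4-/-), or were wild type (WT). Stroke was made by blocking the left middle cerebral artery for 60 min with a filament inside the vessel, followed by 24 h of reperfusion. The ipsilateral hemisphere, on the operated side, holds the stroke, and the contralateral hemisphere of operated mice served as its control, so no hemisphere of an unoperated mouse stands in the comparison. The 4 groups are Lama4-/- ipsilateral, Lama4-/- contralateral, WT ipsilateral and WT contralateral, with 3 RNA-seq libraries each and 12 in all. Each library is a pool of 2 mice, and the knockout is not described in the labels as limited to any cell type. The hemispheres were homogenized after perfusion with PBS and removal of olfactory bulb and cerebellum. A step to remove blood and its immune cells is described. The labels name a kit made for single cells, although each table column is 1 bulk library.

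Hypoxia-inducible factors (HIFs) are transcription factors whose alpha subunit is made all the time and destroyed all the time. Prolyl hydroxylases, which need oxygen, mark the subunit, the VHL protein binds the mark, and the subunit is degraded. Without oxygen the subunit persists, pairs with ARNT and binds short DNA words, RCGTG, near its target genes. Targets widen and grow vessels (Adm, Vegfa), shift metabolism from mitochondria to glycolysis (Pdk1, Slc16a3), hold the pH (Car9), remove mitochondria (Bnip3) and feed back on the HIF subunit itself (Egln3). In experimental stroke the response is known from the ischemic core and the tissue around it, while blood flow returns oxygen to part of the territory.

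The promoters of the members that moved with the stroke, and of 1 that holds most of these words but did not pass the test, show where the words lie. They are from RefSeq, on build GRCm38.p6, and run from 250 bases before to 50 after the transcription start, 5′ to 3′ on the gene's own strand. Capitals mark ACGTG and GCGTG and their reverse complements, searched on both strands.
Adm (chr7:110627407-110627706, plus strand): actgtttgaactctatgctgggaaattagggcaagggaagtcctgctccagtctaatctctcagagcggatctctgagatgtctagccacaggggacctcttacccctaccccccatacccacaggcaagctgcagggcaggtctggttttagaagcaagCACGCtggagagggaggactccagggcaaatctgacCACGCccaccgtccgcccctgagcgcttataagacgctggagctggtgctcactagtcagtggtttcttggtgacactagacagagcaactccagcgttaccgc
Slc16a3 (chr11:120948817-120949116, plus strand): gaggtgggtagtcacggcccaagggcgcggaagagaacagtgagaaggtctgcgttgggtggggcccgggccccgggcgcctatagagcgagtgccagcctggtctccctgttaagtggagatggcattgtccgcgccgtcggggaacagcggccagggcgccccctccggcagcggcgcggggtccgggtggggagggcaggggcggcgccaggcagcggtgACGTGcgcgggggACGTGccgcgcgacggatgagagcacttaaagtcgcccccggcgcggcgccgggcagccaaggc
Ankrd37 (chr8:45999801-46000100, minus strand): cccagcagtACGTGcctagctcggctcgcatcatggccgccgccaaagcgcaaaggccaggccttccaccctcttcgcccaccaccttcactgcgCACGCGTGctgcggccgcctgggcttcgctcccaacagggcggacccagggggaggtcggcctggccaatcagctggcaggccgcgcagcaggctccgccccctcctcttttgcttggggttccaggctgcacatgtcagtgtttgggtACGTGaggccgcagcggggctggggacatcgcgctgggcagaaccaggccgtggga
Bnip3 (chr7:138909457-138909756, minus strand): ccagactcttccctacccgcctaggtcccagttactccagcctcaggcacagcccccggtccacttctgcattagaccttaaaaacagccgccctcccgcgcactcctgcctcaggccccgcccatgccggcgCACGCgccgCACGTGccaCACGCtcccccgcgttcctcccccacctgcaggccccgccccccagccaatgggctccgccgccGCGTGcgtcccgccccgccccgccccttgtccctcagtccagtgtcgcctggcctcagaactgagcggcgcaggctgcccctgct
In the Adm promoter, GCGTG stood at 161 to 165 and 197 to 201 of the 300 bases, on the opposite strand both times. The Slc16a3 promoter held ACGTG at 224 to 228 and 237 to 241. The Ankrd37 promoter held 4 words, 2 of which overlap, and the Bnip3 promoter 5, of which 2 overlap. Entries were matched for 8 of the 10 genes, all but Angptl4 and Ndrg1, and gave 10 promoters, since Vegfa and Pdk1 have 2 each. At least 1 word was present in 8 of these 10 promoters, against 43.8% of all 32851 promoters of the same length. ACGTG, with or without the other word, was present in 6 of the 10 and in 19.6% of all promoters. GCGTG, counted in the same way, was present in 5 of the 10 and in 32.4% of all. These are matches of letters and are not shown to be bound. The members were chosen as known hypoxia-induced genes, so the shares above are a description and not a test.

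Reads counted in genes ran from 27537167 to 44113824 per library, and 16567 to 17118 genes had at least 1 read. Lama4 stood at 0.797, 0.220 and 0.583 CPM in Lama4-/- ipsilateral hemispheres, against 14.8, 14.7 and 14.5 CPM in WT ipsilateral ones. In contralateral hemispheres it stood at 0.337, 0.312 and 0.206 CPM in Lama4-/- and at 10.8, 7.47 and 9.27 CPM in WT. Each library therefore matched its genotype label. Levels are CPM, the counts scaled to library size, here corrected with the TMM factors of edgeR, which ran from 0.963 to 1.05. Log2 fold changes are given with their standard error, and a gene was called where edgeR's quasi-likelihood test gave a Benjamini-Hochberg adjusted p under 0.05 over all genes tested. The hemispheres carried brain markers in every library, with summed neuron markers between 5471 and 7354 CPM. All 8 markers of striatal neurons were called lower after stroke in both genotypes.

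The stroke changed few of the 10 genes at this time. Adm and Slc16a3 rose in the ipsilateral hemispheres of both genotypes, Adm about 2.5-fold and Slc16a3 about 1.5-fold. Ankrd37 fell in Lama4-/- mice. In Lama4-/-, 2 members were called higher (20%) and 1 lower (10%), while 23.3% of all 15351 genes tested were called, 12.8% higher and 10.5% lower. In WT, 2 members were called higher (20%) and 0 lower, while 15.4% of all genes were called, 9.91% higher and 5.47% lower. The 0 lower is edgeR's count, and in WT 3 of 10 members had an unadjusted p under 0.05, as did 29.5% of all genes. DESeq2 called 1 member lower in WT and voom 0. With only 10 members these shares differ from the background by about 1 gene, so they do not set the group apart. The median log2 fold change of the members was 0.01 in Lama4-/- and 0.04 in WT, beside −0.01 and 0.01 for all genes tested. Same-numbered ipsilateral and contralateral libraries varied together. The labels do not say that they come from the same mice. That number was taken as the pool of mice and fitted as a block. With it 3 members were called higher and 2 lower in Lama4-/-, and 3 higher and 1 lower in WT. In that fit 16.2% of all genes were called higher and 15.7% lower in Lama4-/-, and 13.2% and 10.3% in WT. Signs of same-numbered pairs are given below as a description, without the share of all genes that had the same signs. In bulk RNA, fewer cells of a type and less RNA per cell cannot be told apart, and this holds for every change below.

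**Figure D1:**
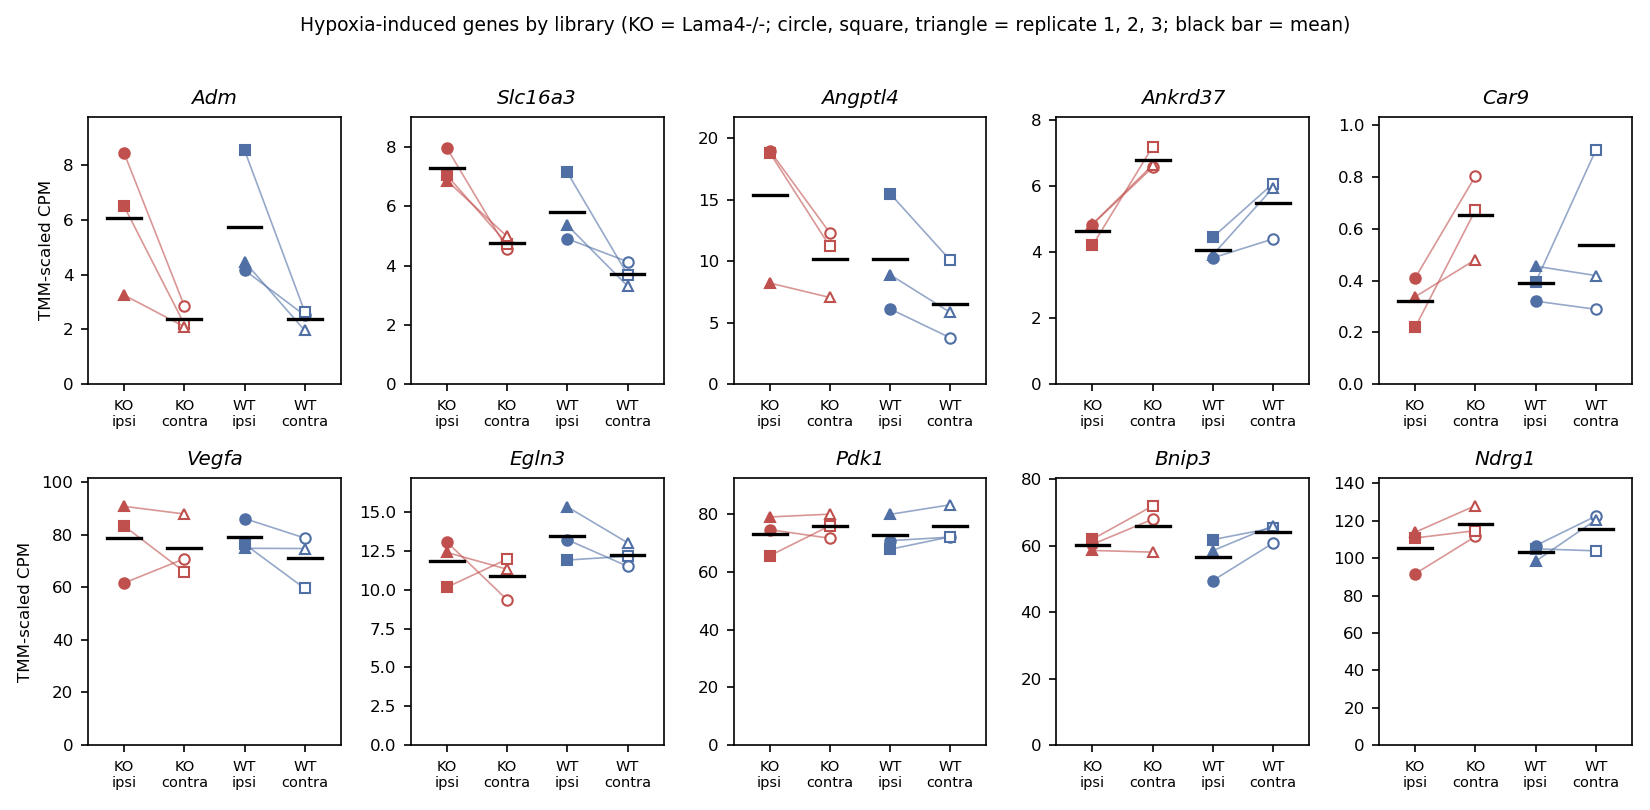
Levels of the 10 hypoxia-induced genes in TMM-scaled CPM (y axis, each panel from 0) in the 12 libraries, by group. Lines join ipsilateral and contralateral libraries of the same number, and black bars are means of 3. Adm and Slc16a3 lie higher in every ipsilateral than in every contralateral library of their genotype, and Ankrd37 lies lower in all 3 Lama4-/- ipsilateral libraries.

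Among the secreted factors, Adm moved most. Adm encodes adrenomedullin, a peptide that relaxes vessels and keeps endothelial junctions tight (ENSMUSG00000030790, mm10, chromosome 7, 110627661 to 110629820, plus strand). Its level was 8.45, 6.50 and 3.25 CPM in Lama4-/- ipsilateral hemispheres (replicates 1, 2 and 3), against 2.86, 2.19 and 2.10 CPM in Lama4-/- contralateral ones. It was 4.17, 8.55 and 4.48 CPM in WT ipsilateral hemispheres, against 2.51, 2.64 and 1.96 CPM in WT contralateral ones. No ipsilateral library overlapped a contralateral one of its genotype, but the ipsilateral levels spread widely, with Lama4-/- replicate 3 the lowest and WT replicate 2 the highest. Over all genes, 17.9% in Lama4-/- and 21.2% in WT were higher in this way without overlap. The log2 fold change was 1.35 ± 0.35 in Lama4-/- (edgeR adjusted p = 0.0139, 95% confidence interval 0.60 to 2.10) and 1.28 ± 0.35 in WT (adjusted p = 0.0278, interval 0.52 to 2.04). The rise was seen in 6 of 6 same-numbered pairs, between 0.62 and 1.68 on the log2 scale. Without 1 library the log2 fold change ran from 1.04 to 1.65 in Lama4-/- and from 0.88 to 1.47 in WT. Fits in WT without 1 library also called fewer genes in all, 1347 to 1740 against 2361. The Adm call was not kept in every such fit. In Lama4-/- it was lost without Lama4-/- ipsilateral replicate 1 (log2 1.04, edgeR adjusted p = 0.0679), contralateral replicate 2 (1.29, adjusted p = 0.0586) or contralateral replicate 3 (1.28, adjusted p = 0.0528). In WT it was lost without WT ipsilateral replicate 2 (log2 0.88, edgeR adjusted p = 0.103) or any WT contralateral replicate (1.33, 1.36 and 1.15 without replicates 1, 2 and 3, with adjusted p = 0.0677, 0.0646 and 0.114). Over all alternatives the edgeR, DESeq2 and voom adjusted p ran from 0.000459 to 0.0679 in Lama4-/- and from 0.00178 to 0.114 in WT. An antisense gene, Gm28863, overlaps Adm, and reads of the pair cannot be told apart because the strand setting of the counting is not given in the sources used here.

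Vegfa, the growth factor that makes vessels sprout and leak, was not called in either genotype. It stood at 61.7, 83.4 and 90.8 CPM in Lama4-/- ipsilateral hemispheres, against 70.9, 65.9 and 87.9 CPM in contralateral ones. In WT it stood at 86.2, 76.5 and 74.9 CPM in ipsilateral hemispheres, against 78.8, 59.6 and 74.8 CPM in contralateral ones. On this TMM scale the groups overlapped in both genotypes. In plain CPM, without the TMM factors, the WT groups lay just apart, with 76.9 CPM in the lowest ipsilateral library and 76.8 CPM in the highest contralateral one. Vegfa in WT was the only member and comparison where the scale decided the overlap. The log2 fold change was 0.07 ± 0.15 in Lama4-/- (edgeR adjusted p = 0.776) and 0.16 ± 0.15 in WT (adjusted p = 0.538). The 95% confidence intervals, −0.25 to 0.39 and −0.17 to 0.48, lie below the values of 1.35 and 1.28 found for Adm.

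Angptl4, a secreted inhibitor of lipoprotein lipase that hypoxia and fatty acids induce, gave a result that depended on how libraries were paired. It stood at 19.0, 18.9 and 8.22 CPM in Lama4-/- ipsilateral hemispheres, against 12.3, 11.2 and 7.04 CPM in contralateral ones. WT levels were 6.11, 15.5 and 8.90 CPM in ipsilateral hemispheres, against 3.76, 10.1 and 5.83 CPM in contralateral ones. The libraries of a genotype differed from each other more than the hemispheres did, and the same numbers were high or low on both sides. Without pairing the log2 fold change was 0.59 ± 0.44 in Lama4-/- (edgeR adjusted p = 0.376) and 0.65 ± 0.46 in WT (adjusted p = 0.393). With the pool as a block it was 0.56 ± 0.10 (edgeR adjusted p = 0.00290) and 0.64 ± 0.11 (adjusted p = 0.00276). The difference was positive in 6 of 6 pairs, at 0.63, 0.75 and 0.22 in Lama4-/- and 0.70, 0.62 and 0.61 in WT on the log2 scale. Leaving out 1 library in the unpaired fit gave 0.39 to 0.89 in Lama4-/- and 0.22 to 1.07 in WT, with no call.

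Of the genes of glycolytic metabolism and pH, the lactate exporter rose. Slc16a3 encodes MCT4, the monocarboxylate transporter that glycolytic cells, in the brain mainly astrocytes, use to release lactate (ENSMUSG00000025161, mm10, chromosome 11, 120948480 to 120960868, plus strand). It stood at 7.97, 7.05 and 6.87 CPM in Lama4-/- ipsilateral hemispheres, against 4.57, 4.73 and 4.98 CPM in contralateral ones. The WT values were 4.91, 7.15 and 5.36 CPM in ipsilateral hemispheres, against 4.13, 3.70 and 3.31 CPM in contralateral ones. Neither genotype's groups overlapped, and the 3 Lama4-/- ipsilateral libraries lay close together. Higher without overlap were also 17.9% of all genes in Lama4-/- and 21.2% in WT. The log2 fold change was 0.62 ± 0.15 in Lama4-/- (edgeR adjusted p = 0.00802, 95% confidence interval 0.30 to 0.93) and 0.65 ± 0.15 in WT (adjusted p = 0.0108, 0.32 to 0.97). Every one of the 6 pairs was positive, from 0.25 to 0.94. The call in Lama4-/- held in all 13 alternatives. In WT it held in 11 of 13 and was lost without WT ipsilateral replicate 2 (log2 0.47, edgeR adjusted p = 0.0512) or WT contralateral replicate 3 (0.56, adjusted p = 0.0619), with adjusted p from 0.00210 over the alternatives.

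Pdk1, a kinase that inhibits pyruvate dehydrogenase, did not differ detectably. It stood at 74.7, 65.7 and 79.1 CPM in Lama4-/- ipsilateral hemispheres, against 71.7, 76.1 and 80.1 CPM in contralateral ones. It stood at 70.9, 67.9 and 80.0 CPM in WT ipsilateral hemispheres, against 72.1, 72.3 and 83.4 CPM in contralateral ones. The groups overlapped almost fully. The 95% confidence interval of its log2 fold change was −0.24 to 0.14 in Lama4-/- and −0.25 to 0.13 in WT.

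Car9, a carbonic anhydrase of the cell surface that is a standard marker of hypoxic tumor tissue, was the scarcest of the 10, with 8 to 31 reads per library. It stood at 0.411, 0.220 and 0.338 CPM in Lama4-/- ipsilateral hemispheres, against 0.805, 0.673 and 0.481 CPM in contralateral ones. In WT it stood at 0.321, 0.394 and 0.456 CPM in ipsilateral hemispheres, against 0.289, 0.905 and 0.419 CPM in contralateral ones. The Lama4-/- groups did not overlap, with every ipsilateral library lower, as were 17.6% of all genes. In WT replicate 2 alone stood far above the rest on the contralateral side. The log2 fold change in Lama4-/- was −1.02 ± 0.39 without pairing (edgeR adjusted p = 0.0777) and −1.03 ± 0.35 in the blocked fit (adjusted p = 0.0442). In WT it was −0.40 ± 0.40 (edgeR adjusted p = 0.556) and turned to 0.11 without WT contralateral replicate 2. The antisense gene Gm12454 overlaps Car9, with the limit given for Adm.

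Of the regulators, Egln3, the hypoxia-induced prolyl hydroxylase PHD3 that marks HIF alpha for destruction, differed between the sides by less than the spread of the libraries. It stood at 13.1, 10.2 and 12.4 CPM in Lama4-/- ipsilateral hemispheres, against 9.37, 12.0 and 11.3 CPM in contralateral ones. WT levels were 13.2, 11.9 and 15.4 CPM in ipsilateral hemispheres, against 11.5, 12.2 and 13.1 CPM in contralateral ones. The groups overlapped in both genotypes, and the log2 fold change was 0.13 ± 0.13 in Lama4-/- (edgeR adjusted p = 0.511) and 0.14 ± 0.13 in WT (adjusted p = 0.507).

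Ankrd37, which hypoxia induces in cultured cells, fell in Lama4-/- hemispheres with stroke. It encodes a small ankyrin repeat protein of little known function, often used in hypoxia signatures (ENSMUSG00000050914, mm10, chromosome 8, 45996902 to 46005707, minus strand). It stood at 4.83, 4.20 and 4.85 CPM in Lama4-/- ipsilateral hemispheres, against 6.57, 7.19 and 6.63 CPM in contralateral ones. The WT values were 3.82, 4.45 and 3.91 CPM in ipsilateral hemispheres, against 4.39, 6.07 and 5.94 CPM in contralateral ones. The Lama4-/- groups were well apart, with every ipsilateral library lower, as were 17.6% of all genes. In WT, contralateral replicate 1 overlapped the ipsilateral libraries. The log2 fold change was −0.56 ± 0.14 in Lama4-/- (edgeR adjusted p = 0.00999, 95% confidence interval −0.85 to −0.26) and held in all 13 alternatives. In WT it was −0.43 ± 0.14 and missed the threshold (edgeR adjusted p = 0.0532). With the pool as a block it was called in WT as well (log2 −0.42, edgeR adjusted p = 0.0365), as it was with RLE normalization (−0.44, adjusted p = 0.0462), in DESeq2 (−0.44, adjusted p = 0.0292) and without WT contralateral replicate 1 (−0.57, adjusted p = 0.0162). The other 9 of 13 alternatives gave no call, with adjusted p up to 0.195. It was lower in 6 of 6 pairs. The genes Ufsp2 and Lrp2bp overlap Ankrd37 on the other strand, so part of its reads could be theirs.

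The last pair of members act in mitochondrial turnover and in stress. Bnip3, a receptor on the mitochondrial outer membrane that brings damaged mitochondria to autophagy, stood at 60.5, 62.0 and 58.6 CPM in Lama4-/- ipsilateral hemispheres, against 68.0, 72.0 and 58.1 CPM in contralateral ones. In WT it stood at 49.6, 61.9 and 58.6 CPM in ipsilateral hemispheres, against 60.8, 65.4 and 66.1 CPM in contralateral ones. Ipsilateral levels were the lower in 5 of 6 pairs, but the groups overlapped. The log2 fold change was −0.13 ± 0.09 in Lama4-/- (edgeR adjusted p = 0.326) and −0.18 ± 0.09 in WT (adjusted p = 0.211). Ndrg1, a stress-responsive gene of glia whose loss harms myelinating cells, stood at 91.7, 110.8 and 113.9 CPM in Lama4-/- ipsilateral hemispheres, against 111.6, 114.7 and 128.1 CPM in contralateral ones. WT levels were 106.7, 105.0 and 98.3 CPM in ipsilateral hemispheres, against 122.5, 103.9 and 120.5 CPM in contralateral ones. Again 5 of 6 pairs were lower and the groups overlapped, with a log2 fold change of −0.16 ± 0.09 in each genotype (edgeR adjusted p = 0.215 in Lama4-/- and 0.255 in WT). Antisense or divergent genes overlap both, Gm45507 for Bnip3 and Gm17035 and Gm2895 for Ndrg1.

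**Figure D2:**
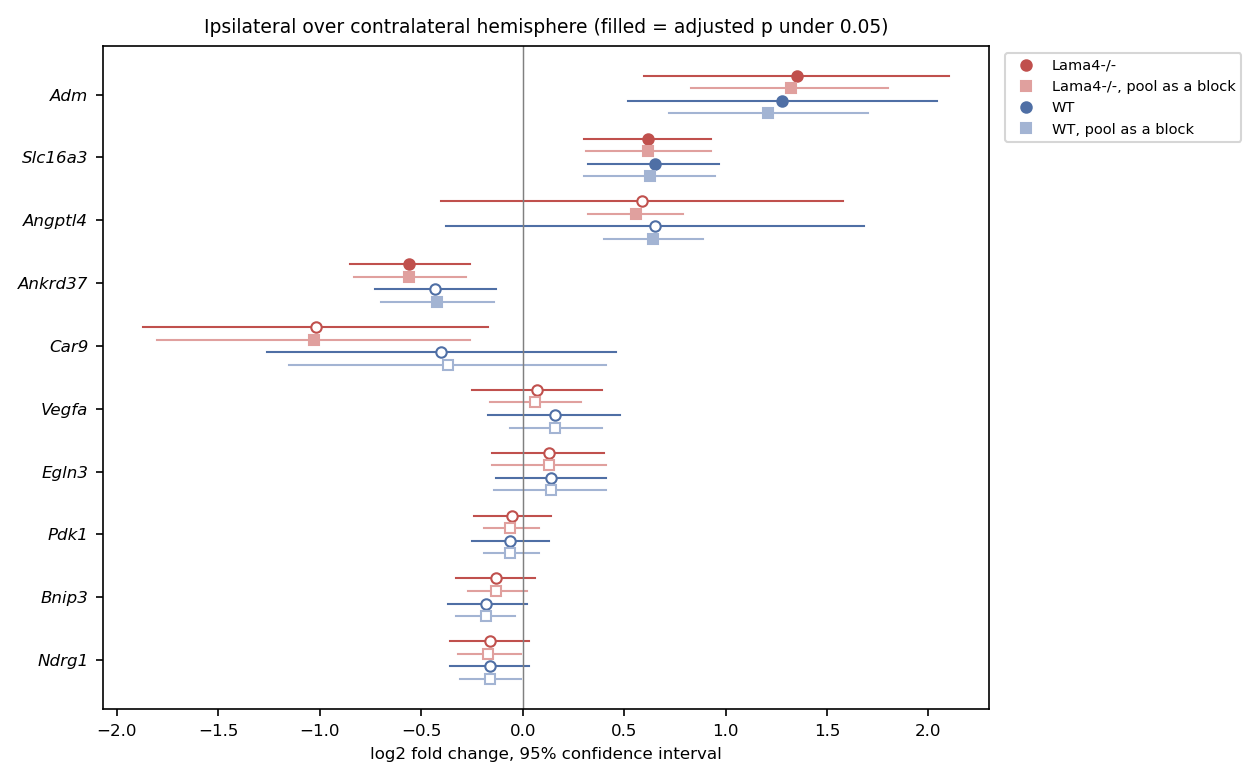
Log2 fold change (x axis), ipsilateral over contralateral, of each hypoxia-induced gene in Lama4-/- and WT. Circles are without and squares with the replicate number, taken as the pool of mice, as a block. Lines are 95% confidence intervals and filled symbols have an adjusted p under 0.05. Adm and Slc16a3 lie above 0 in both fits, Angptl4 keeps its value but has a far shorter interval with the block, and Ankrd37 lies below 0.

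No difference between Lama4-/- and WT mice in the response of the 10 genes was detected. The difference of the stroke changes, Lama4-/- minus WT, was called for none of the 10 by edgeR, DESeq2 or voom, and 0 of 10 had an unadjusted p under 0.05. Over all 15351 genes 0 were called (0%), and 1.59% had an unadjusted p under 0.05. The differences were 0.07 ± 0.49 for Adm, −0.03 ± 0.21 for Slc16a3, −0.06 ± 0.64 for Angptl4, −0.13 ± 0.19 for Ankrd37 and −0.62 ± 0.56 for Car9 on the log2 scale (edgeR adjusted p = 1.00 each). The 95% confidence intervals were −1.0 to 1.14 for Adm, −1.49 to 1.36 for Angptl4 and −0.48 to 0.42 for Slc16a3. With the pool as a block 0 of 10 were called as well, as were 0 of all genes, and the smallest unadjusted p of a member was 0.213, that of Car9. In that fit the difference was −0.09 ± 0.15 for Angptl4 (interval −0.42 to 0.25), 0.11 ± 0.31 for Adm (−0.58 to 0.80) and −0.01 ± 0.20 for Slc16a3 (−0.45 to 0.44). Differences within these intervals are not excluded with 3 libraries a group, and the genotypes are not shown to respond alike.

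Within a hemisphere, no member was called between genotypes. In ipsilateral hemispheres 1 of 15208 genes was called (0.00658%), and in contralateral ones 2 of 14958 (0.0134%). Lama4 itself was called in both (log2 −4.75, edgeR adjusted p = 0.00155, and log2 −4.97, adjusted p = 2.22e-05). Of the members, 0 of 10 had an unadjusted p under 0.05 in ipsilateral and 1 of 10, Slc16a3, in contralateral hemispheres, against 3.49% and 9.51% of all genes. DESeq2 and voom also called 0 members in each. Slc16a3 was higher in all 3 Lama4-/- than in all 3 WT contralateral libraries, by 0.35 ± 0.14 on the log2 scale (edgeR adjusted p = 0.510), and by 0.33 ± 0.16 in ipsilateral ones (adjusted p = 0.989). Ankrd37 was likewise higher in all Lama4-/- contralateral libraries (0.31 ± 0.14, edgeR adjusted p = 0.510) and overlapped in ipsilateral ones (0.19 ± 0.14, adjusted p = 0.989). Over all genes, 8.35% were higher without overlap in Lama4-/- contralateral hemispheres. Angptl4 differed by 0.60 ± 0.44 in ipsilateral and 0.66 ± 0.34 in contralateral hemispheres, with overlapping libraries (edgeR adjusted p = 0.989 and 0.510). These values moved when single WT libraries were left out. In ipsilateral hemispheres Angptl4 had 0.34 without WT replicate 1 and 1.04 without WT replicate 2. In contralateral ones it had 0.38 without WT replicate 1, when Slc16a3 had 0.44, and 1.07 without WT replicate 2. The other 7 members differed by −0.26 to 0.37 on the log2 scale. The authors' deposited table gives Slc16a3 a log2 fold change of 0.34 in ipsilateral hemispheres (p = 0.0339, adjusted p = 1) and 0.35 in contralateral ones (p = 0.0405, adjusted p = 0.411). It likewise gives no member an adjusted p under 0.05.

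**Figure D3:**
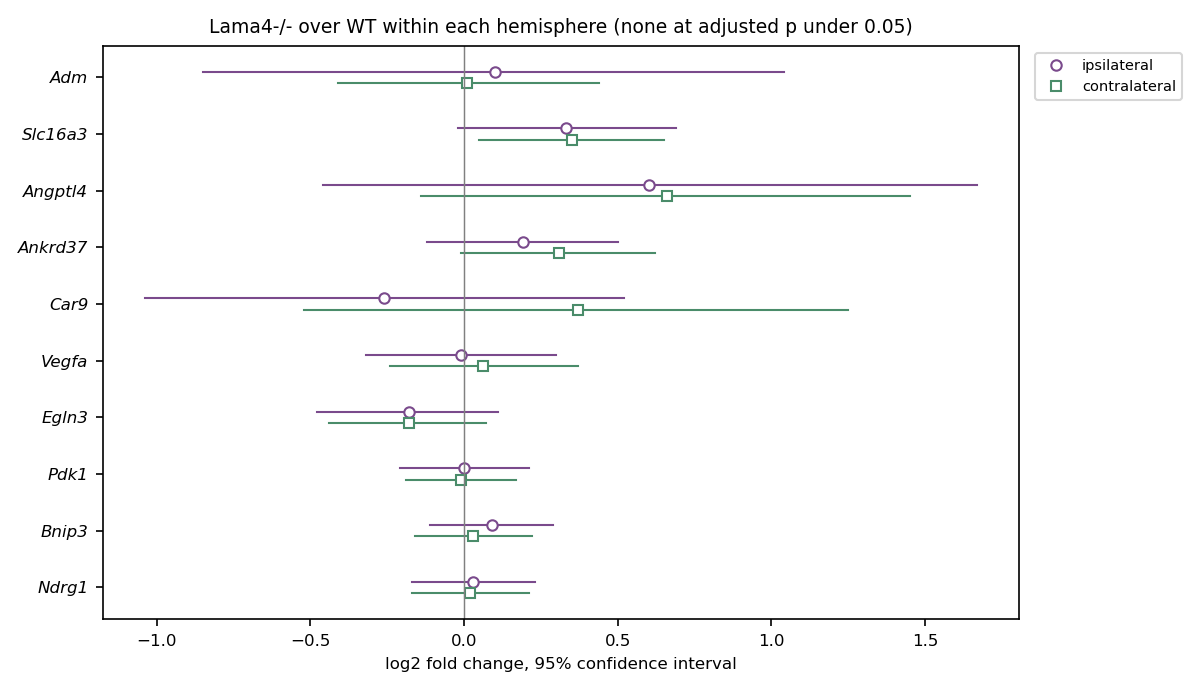
Log2 fold change (x axis) of each hypoxia-induced gene, Lama4-/- over WT, in ipsilateral (circles) and contralateral (squares) hemispheres, with 95% confidence intervals. None has an adjusted p under 0.05. Slc16a3, Angptl4 and Ankrd37 lie to the right of 0 in both hemispheres, as do Adm, Bnip3 and Ndrg1, by 0.10 or less. The interval of Slc16a3 in contralateral hemispheres, 0.05 to 0.65, does not reach 0.

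Levels across the 4 groups followed the hemisphere for some members and neither factor for others. For Slc16a3 and Ankrd37 the genotypes also lay apart in contralateral hemispheres, though neither gene was called there. Mean Adm was 6.07 ± 2.63 CPM in Lama4-/- ipsilateral and 5.73 ± 2.45 CPM in WT ipsilateral hemispheres, which do not differ beyond their spread, then 2.38 ± 0.41 and 2.37 ± 0.36 CPM in Lama4-/- and WT contralateral ones (SD, n = 3 each). Mean Slc16a3 was 7.30 ± 0.59 CPM in Lama4-/- ipsilateral, 5.81 ± 1.19 in WT ipsilateral, 4.76 ± 0.21 in Lama4-/- contralateral and 3.71 ± 0.41 CPM in WT contralateral hemispheres (SD, n = 3 each). In that order, neighbouring groups overlapped except the contralateral groups of the 2 genotypes. Mean Ankrd37 was 4.63 ± 0.37 CPM in Lama4-/- ipsilateral, 4.06 ± 0.34 in WT ipsilateral, 6.80 ± 0.34 in Lama4-/- contralateral and 5.47 ± 0.94 CPM in WT contralateral hemispheres (SD, n = 3 each). Ordered by their means, its neighbouring groups also overlapped except the contralateral groups. For Angptl4, Car9, Vegfa, Egln3, Pdk1, Bnip3 and Ndrg1, the libraries of all groups next to each other in the order of the means overlapped.

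Library differences within the ipsilateral groups were shared by the induced members. In Lama4-/-, replicate 3 was lowest for Adm, Angptl4 and Slc16a3. In WT, replicate 2 was highest for the same genes. The summed level of 10 endothelial markers was 286.3, 384.7 and 276.7 CPM in Lama4-/- ipsilateral hemispheres, against 180.5, 207.6 and 233.6 CPM in contralateral ones. It was 237.7, 315.2 and 229.4 CPM in WT ipsilateral hemispheres, against 210.8, 179.6 and 204.3 CPM in contralateral ones. Of these markers 5 of 10 were called higher in Lama4-/- and 4 of 10 in WT, with a median log2 fold change of 0.71 and 0.46. Over all genes, 12.8% and 9.91% were called higher. Replicate 2 was the highest of its ipsilateral group in both genotypes. The 9 neutrophil markers summed to 16.1, 22.4 and 7.46 CPM in Lama4-/- ipsilateral hemispheres and 7.82, 7.85 and 6.92 CPM in WT ipsilateral ones, against 5.86 to 7.08 CPM in contralateral libraries. The 9 monocyte and macrophage markers summed to 292.2, 308.1 and 232.9 CPM in Lama4-/- ipsilateral hemispheres, and to 226.5 to 232.9 CPM in WT ipsilateral ones. In contralateral hemispheres they summed to 158.4 to 169.9 CPM in Lama4-/- and 167.1 to 187.9 CPM in WT. This list includes Fn1, Vcan and Itga4, and which cells gave the summed reads was not tested. Of the neutrophil markers tested, 3 of 5 were called higher in Lama4-/- by edgeR and 0 of 5 in WT, where 1 had an unadjusted p under 0.05. Of those of monocytes and macrophages, 5 of 7 were called higher in Lama4-/- and 3 of 7 in WT. For the difference of the stroke changes, 0 of 5 neutrophil and 0 of 7 monocyte and macrophage markers were called. An unadjusted p under 0.05 was found for 2 of 5 and 3 of 7, and for 1.59% of all genes. Between genotypes in ipsilateral hemispheres 0 were called as well. There 3 of 5 and 4 of 7 had an unadjusted p under 0.05, as did 3.49% of all genes. Ly6g, which defines neutrophils, and Ly6c2, of inflammatory monocytes, had no read in any WT contralateral library. The part of vessel and blood cells in the changes of Adm, Slc16a3 and Angptl4 was not tested.

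The HIF system that drives these genes showed 1 change at the RNA level. Of 16 genes of HIF subunits, hydroxylases, the VHL complex and coactivators, 1 was called higher and 0 lower in Lama4-/- (6.25% and 0%). Over all genes the shares were 12.8% and 10.5%. In WT 0 were called by edgeR, DESeq2 or voom, and 1 had an unadjusted p under 0.05. Over all genes in WT, edgeR called 9.91% higher and 5.47% lower. The gene called in Lama4-/- was Hif1a, the oxygen-regulated HIF-1 alpha subunit, at 146.4, 126.3 and 119.8 CPM in Lama4-/- ipsilateral hemispheres, against 109.0, 106.1 and 107.6 CPM in contralateral ones. Its log2 fold change was 0.28 ± 0.07 in Lama4-/- (edgeR adjusted p = 0.0146) and 0.16 ± 0.07 in WT (adjusted p = 0.162). The call in Lama4-/- was lost without ipsilateral replicate 1 (0.19, edgeR adjusted p = 0.0683) and held in the other 12 of 13 alternatives, with adjusted p from 0.00312. Epas1, which encodes the HIF-2 alpha subunit of endothelium and glia, had 0.47 ± 0.20 in Lama4-/- and 0.37 ± 0.20 in WT and was not called (edgeR adjusted p = 0.111 and 0.240). It was called in Lama4-/- by DESeq2 (0.48, adjusted p = 0.0446) and without Lama4-/- contralateral replicate 1 (0.65, edgeR adjusted p = 0.0437). Egln1, the main prolyl hydroxylase PHD2, had −0.06 ± 0.07 and −0.05 ± 0.07, and Vhl −0.05 ± 0.08 and −0.01 ± 0.08, in Lama4-/- and WT, with no call. HIF alpha is controlled mostly at the protein level, which was not measured here.

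Some other known HIF targets rose after stroke and some fell. Of 45 tested (48 listed), 11 were called higher (24.4%) and 9 lower (20%) in Lama4-/-, beside 12.8% and 10.5% of all genes. In WT 7 were called higher (15.6%) and 5 lower (11.1%), beside 9.91% and 5.47% of all genes. The median log2 fold change was 0.02 in Lama4-/- and 0.00 in WT, close to that of all genes tested. With the pool as a block 12 were called higher and 12 lower in Lama4-/-, beside 16.2% and 15.7% of all genes. The block gave 9 and 9 in WT, beside 13.2% and 10.3%. The largest rise was that of Hmox1, heme oxygenase 1, which breaks down heme. It stood at 113.2, 105.7 and 68.3 CPM in Lama4-/- ipsilateral hemispheres, against 5.50, 5.50 and 4.64 CPM in contralateral ones, and at 40.3, 92.9 and 59.4 CPM in WT ipsilateral hemispheres, against 4.10, 5.32 and 4.24 CPM in contralateral ones. Its log2 fold change was 4.19 ± 0.32 in Lama4-/- (edgeR adjusted p = 1.67e-05) and 3.83 ± 0.32 in WT (adjusted p = 4.52e-05).

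Stc2, a secreted stanniocalcin, rose by 1.46 ± 0.25 in Lama4-/- and 2.02 ± 0.24 in WT (edgeR adjusted p = 0.00109 and 0.00014). Loxl2, which crosslinks collagen, rose by 1.98 ± 0.27 and 1.49 ± 0.28 (adjusted p = 0.000195 and 0.00290). Its relative Lox rose in Lama4-/- (2.13 ± 0.58, edgeR adjusted p = 0.0215) and had 1.49 ± 0.59 in WT (adjusted p = 0.118), where the block gave a call (1.35, adjusted p = 0.0329). The call of Lox in Lama4-/- was lost without ipsilateral replicate 1 or 2 or contralateral replicate 2 or 3 (log2 1.82 to 2.06, edgeR adjusted p = 0.0606 to 0.0918). Igfbp3, a carrier of insulin-like growth factors, rose in Lama4-/- (1.81 ± 0.41, edgeR adjusted p = 0.0114) and had 1.14 ± 0.41 in WT (adjusted p = 0.0956), where the block gave 1.03 and a call (adjusted p = 0.0290). None of these had a called difference between genotypes in the stroke change. Slc2a1, the glucose transporter GLUT1 of the blood-brain barrier, had 0.12 ± 0.23 in Lama4-/- and 0.19 ± 0.23 in WT. Bnip3l, the closest relative of Bnip3, had −0.14 ± 0.07 and −0.17 ± 0.07. Neither was called. Hmox1 and Lox are also known targets of other stress and injury pathways.

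**Figure D4:**
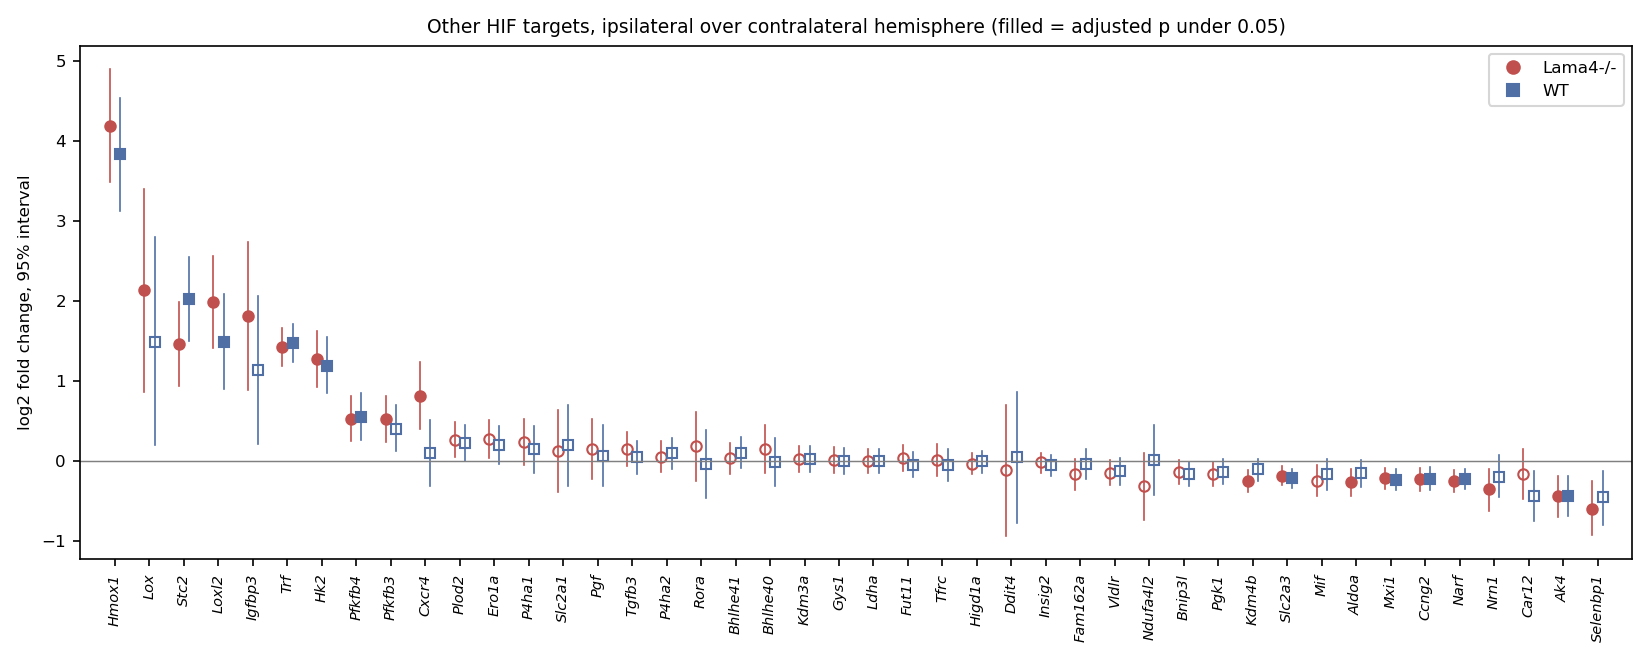
Log2 fold change (y axis), ipsilateral over contralateral, of other HIF targets tested (x axis, ordered by their change, 1 not shown) in Lama4-/- (circles) and WT (squares), with 95% confidence intervals. Filled symbols have an adjusted p under 0.05. A few genes at the left, led by Hmox1 at 4.19 in Lama4-/-, rose far, and most of the rest lie within 0.5 of 0.

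Of the receptors and partners of the members, Lpl had the largest called change. Of 25 tested (26 listed), 4 were called higher (16%) and 2 lower (8%) in Lama4-/-, beside 12.8% and 10.5% of all genes. In WT 2 were called higher (8%) and 1 lower (4%), beside 9.91% and 5.47%, so the shares are near those of all genes. With the pool as a block 4 were called higher and 4 lower in WT, beside 13.2% and 10.3% of all genes. Lpl, the lipoprotein lipase that Angptl4 inhibits, stood at 41.6, 33.9 and 41.5 CPM in Lama4-/- ipsilateral hemispheres, against 16.3, 15.4 and 16.7 CPM in contralateral ones. Its log2 fold change was 1.27 ± 0.14 in Lama4-/- and 1.22 ± 0.14 in WT (edgeR adjusted p = 6.1e-05 and 0.000129). Calcrl, which forms the adrenomedullin receptor with Ramp2 or Ramp3, rose in Lama4-/- (0.64 ± 0.15, edgeR adjusted p = 0.00677) and had 0.41 ± 0.14 in WT (adjusted p = 0.0729). The block gave 0.42 and a call in WT (adjusted p = 0.0427). Ramp2 had −0.14 ± 0.13 and −0.10 ± 0.13 and was not called. Ramp1, with which Calcrl forms a receptor for CGRP instead, fell in Lama4-/- (−0.43 ± 0.10, edgeR adjusted p = 0.00839) and had −0.31 ± 0.10 in WT (adjusted p = 0.0619, and 0.0117 with the block).

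Of the Vegfa receptors, Kdr, the main signalling one, rose in Lama4-/- (0.78 ± 0.20, edgeR adjusted p = 0.0129) and had 0.38 ± 0.20 in WT (adjusted p = 0.222). This call was lost without Lama4-/- ipsilateral replicate 2 (0.60, edgeR adjusted p = 0.0522) or contralateral replicate 2 (0.73, adjusted p = 0.0561). Flt4, a receptor of other VEGFs, rose by 0.87 ± 0.19 in Lama4-/- and 0.79 ± 0.20 in WT (edgeR adjusted p = 0.00607 and 0.0160). In WT this was lost without ipsilateral replicate 2 (0.59, edgeR adjusted p = 0.0693) or contralateral replicate 3 (0.71, adjusted p = 0.0774). Flt1, the decoy receptor, had 0.34 ± 0.14 and 0.12 ± 0.14 with no call. Kdr and Flt1 are also in the endothelial list above, whose summed level moved with the hemisphere. Bsg, the chaperone that brings MCT4 to the cell surface, fell in Lama4-/- (−0.33 ± 0.08, edgeR adjusted p = 0.0112) and had −0.18 ± 0.08 in WT (adjusted p = 0.165, and 0.0475 with the block). Without Lama4-/- ipsilateral replicate 1 it had −0.28 (edgeR adjusted p = 0.0527).

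Among relatives of the members in the same gene families, some rose and some fell. This list shares 3 genes, Pgf, Bnip3l and Car12, with that of the other HIF targets. Of 29 tested (33 listed), 3 were called higher (10.3%) and 5 lower (17.2%) in Lama4-/-, beside 12.8% and 10.5% of all genes. In WT 1 was called higher (3.45%) and 3 lower (10.3%), beside 9.91% and 5.47%. The block gave 6 higher and 8 lower in Lama4-/-, beside 16.2% and 15.7% of all genes. In WT it gave 2 and 7, beside 13.2% and 10.3%. Slc16a1, the lactate transporter MCT1 of endothelium and oligodendrocytes, rose in Lama4-/- (0.35 ± 0.09, edgeR adjusted p = 0.0157) and had 0.28 ± 0.09 in WT (adjusted p = 0.0607, and 0.0311 with the block). The call in Lama4-/- was lost without ipsilateral replicate 1 or 2 or contralateral replicate 1 or 3 (edgeR adjusted p = 0.0562 to 0.0646). Slc16a6 rose by 0.53 ± 0.13 in Lama4-/- and 0.52 ± 0.13 in WT (edgeR adjusted p = 0.00811 and 0.0135). In WT the call was lost without ipsilateral replicate 1 (0.45, adjusted p = 0.0623) or contralateral replicate 2 (0.46, adjusted p = 0.0581). Pdk4, the pyruvate dehydrogenase kinase of fatty acid use, had 0.36 ± 0.45 and 0.27 ± 0.45. With the block it was called in Lama4-/- (0.42, edgeR adjusted p = 0.0318).

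Car4, a carbonic anhydrase on the surface of capillary endothelium, fell by 0.74 ± 0.10 in Lama4-/- and by 0.42 ± 0.10 in WT on the log2 scale (edgeR adjusted p = 0.000238 and 0.0140). In WT the call was lost without ipsilateral replicate 3 (−0.33, adjusted p = 0.0625) or contralateral replicate 3 (−0.40, adjusted p = 0.0547). Ndrg4, a neuronal member of the Ndrg1 family, fell by 0.46 ± 0.07 in Lama4-/- and 0.38 ± 0.07 in WT (edgeR adjusted p = 0.000494 and 0.00284). Ndrg3 fell by 0.39 ± 0.07 and 0.28 ± 0.07 (edgeR adjusted p = 0.00175 and 0.0160), and in WT its call was lost without ipsilateral replicate 1, contralateral replicate 2 or contralateral replicate 3 (adjusted p = 0.0534, 0.0557 and 0.0623). Summed neuron markers were also lower in ipsilateral hemispheres, at 5471 to 6542 CPM in Lama4-/- and 6123 to 6175 CPM in WT, against 6546 to 7187 and 6966 to 7354 CPM in contralateral ones. Their part in the change of Ndrg3 and Ndrg4 was not tested. In Lama4-/-, Angptl2 rose by 0.50 ± 0.15 (edgeR adjusted p = 0.0298) and Angptl1 fell by 0.84 ± 0.26 (adjusted p = 0.0321), but the calls were not kept when some single libraries were left out. That of Angptl1 was lost without any Lama4-/- library but ipsilateral replicate 2 (−0.85 to −0.73, edgeR adjusted p = 0.0588 to 0.0922). That of Angptl2 was lost without ipsilateral replicate 2 or contralateral replicate 1 or 2 (0.41 to 0.47, edgeR adjusted p = 0.0887 to 0.104) and on the 6 Lama4-/- libraries alone (adjusted p = 0.0779).

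The genes whose level ran most like that of a member over the 12 libraries were named from Pearson's r of log2 CPM, as a description. For Adm they were Cttn (r = 0.981) and B4galt1 (0.976), and for Slc16a3 Slc39a7 (0.950) and H2-K1 (0.950). For Angptl4 they were Tsc22d4 (0.961) and Mamstr (0.955), and for Ankrd37 Prom1 (0.954) and Dph7 (0.951). Bnip3 ran with Mia (0.958), Ndrg1 with Padi2 (0.951), Egln3 with Rheb (0.912), Pdk1 with Rps6kc1 (0.911) and Vegfa with Rasgrp3 (0.901). The 12 points share the hemisphere and, within a hemisphere, the genotype, and the genes were picked as the highest of all genes tested. Car9 was too scarce for this description.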

How the data were processed

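RNA-seq was made from 12 pools of mouse brain hemispheres, 3 per genotype and side. The authors deposited unnormalized counts, 1 whole number per gene and library, per the file headers. The submitters' processing notes name bcl2fastq, FastQC (0.72), STAR (2.6.0), featureCounts (1.6.4), DESeq2 and build mm10. Neither annotation nor strand setting is given in the sources used here, so coordinates are those of the GENCODE annotation of the same build. The deposited log2 fold changes and p-values (Wald, Lama4-/- against WT in 1 hemisphere) were made by the authors, per the file headers, and their direction was read from the sign of Lama4. The deposited normalized tables were left out because each hemisphere was normalized apart.

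Counts were analysed with edgeR 4.0.16 in R 4.3.3 (TMM, filterByExpr with a minimum count of 10, robust quasi-likelihood fit and F test, Benjamini-Hochberg over all genes tested, called at 0.05). Stroke changes and their difference between genotypes were fitted on all 12 libraries, and genotypes within a hemisphere on its 6. Alternatives were RLE normalization, no filter, a filter of at least 1 CPM in at least 3 libraries, DESeq2 1.42.0, voom (limma 3.58.1), other sets of libraries, a replicate block and leaving out each library. Scripts were tested on simulated data. No library was treated as a duplicate, since chi-square per degree of freedom between libraries of a group was 8.90 to 31.0. P-values measure the spread between pools, and levels are limited by the depth of each library. For pairing, deviations of same-numbered ipsilateral and contralateral libraries from their group means correlated at 0.239, 0.109 and 0.337 in Lama4-/- and 0.250, 0.325 and 0.207 in WT. All 6 are over 0.1. Among the libraries of its genotype on the other side, each library correlated best with its own number. The pairing comes from these data, since the labels give only the numbers. Whether a number stands for shared mice was not tested. The members and gene lists, and the tests, were chosen with earlier results of these data known. The genes named are all members, from each list up to 6 called genes with the largest absolute log2 fold change, 12 genes named whatever their values, and for each member with a mean log2 CPM of at least 0 the most alike genes. From the list of other HIF targets, 1 gene that the rule names is counted but not reported here.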

Additional observations from a re-analysis of the deposited data

How the results depend on the processing

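Of the 10 members, the calls of Slc16a3 and Ankrd37 in Lama4-/- kept their direction and stayed called in all 13 alternatives, and those of Adm were the least stable. Precision was limited by 3 pools a group and, for Car9, by 8 to 31 reads per library. The cause of the shifts below was not tested. Levels were first tabulated in plain CPM, and TMM-scaled CPM was chosen in its place after seeing the data. The change of scale altered the overlap of groups for Vegfa in WT alone, from apart to overlapping.

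With the replicate number, taken as the pool of mice, as a block, 2 members were called lower in Lama4-/- and 1 in WT. In WT 3608 genes were called, 1584 of them lower, against 2361 and 840 without the block. The block added the calls of Angptl4 in both genotypes, Car9 in Lama4-/- and Ankrd37 in WT, and changed no other call of a member. Libraries of different genotypes come from different mice. Across genotypes, same-numbered libraries correlated at −0.097, 0.349 and 0.154 in ipsilateral and 0.076, 0.227 and 0.150 in contralateral hemispheres. The largest value within a genotype was 0.337. What the numbers share across genotypes was not tested. A block on the number called 4 genes in ipsilateral hemispheres, all 4 lower, and 121 in contralateral ones, 18 higher and 103 lower, and 0 members.

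Between genotypes, DESeq2 called 22 genes in ipsilateral hemispheres, 6 higher and 16 lower, and 17 in contralateral ones, 2 higher and 15 lower, against 1 and 2 in edgeR. In contralateral hemispheres voom called 1 gene, lower, and edgeR without the filter called 1 higher. On all 12 libraries edgeR called 3 genes in ipsilateral hemispheres, 2 of them higher, and 1 higher and 1 lower in contralateral ones. In WT, DESeq2 called 1290 genes lower after stroke against 840, and 1 member lower, as did RLE normalization. DESeq2 also called Igfbp3, Ramp1 and Slc16a1 in WT. On the 6 Lama4-/- libraries alone 915 genes were called lower against 1611, and on the 6 WT libraries alone 1186 against 840, with 2885 in all against 2361.

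Leaving out 1 library gave 2286 (without Lama4-/- ipsilateral replicate 1) to 3618 genes called after stroke in Lama4-/-, 885 to 1680 of them lower, and 1 to 2 members higher. In WT it gave 1347 to 1740 genes, 968 to 1215 higher and 379 to 564 lower, with 0 to 2 members higher and 0 to 1 lower. Every such fit in WT called fewer genes than the 2361 of all libraries. For the difference of the stroke changes 0 to 1 gene was called, higher. Between genotypes 1 to 5 genes were called in ipsilateral hemispheres, 0 to 2 higher and 1 to 3 lower, and 1 to 9 in contralateral ones, 0 to 1 higher and 1 to 8 lower.

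Among the members and named genes, signs turned for values that were not called, when 1 library was left out. After stroke in Lama4-/- these were the log2 fold changes of Vegfa (−0.04 to 0.22), Pdk1 (−0.11 to 0.02), Egln1 (−0.10 to 0.01) and Vhl (−0.11 to 0.01). In WT they were those of Pdk1 (−0.13 to 0.01), Car9 (−0.69 to 0.11), Vhl (−0.04 to 0.02), Slc2a1 (−0.12 to 0.39) and Pdk4 (−0.12 to 0.49). In the difference of stroke changes they were Vegfa (−0.19 to 0.06), Adm (−0.25 to 0.48), Angptl4 (−0.48 to 0.37), Bnip3 (−0.04 to 0.12), Egln3 (−0.11 to 0.09), Ankrd37 (−0.20 to 0.01) and Slc16a3 (−0.14 to 0.15), as well as Pdk1 (−0.07 to 0.08) and Ndrg1 (−0.05 to 0.09). Ndrg1 also took both signs there under other settings (−0.01 to 0.01). Between genotypes in ipsilateral hemispheres they were Vegfa (−0.13 to 0.14), Adm (−0.22 to 0.50), Pdk1 (−0.06 to 0.08) and Ndrg1 (−0.03 to 0.12). In contralateral hemispheres they were Vegfa (−0.07 to 0.15), Adm (−0.15 to 0.09), Pdk1 (−0.05 to 0.06), Bnip3 (−0.02 to 0.11) and Ndrg1 (−0.05 to 0.06).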
